A study of Mus musculus with 12 samples.

Results

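TM3 cells, a Leydig cell line from the testis of an immature Balb/c mouse, were treated with 1 mM methoxyacetic acid (MAA) for 8 h and compared with cells kept for 8 h in culture medium alone. The comparison rests on 2 of the 12 arrays of the series, chosen by their labels, which name this concentration and time in one channel and the control of the same time in the other. Each array carried RNA pooled from 3 cultures per channel, and separate pools of MAA-treated cultures were used on the pair. The dyes were exchanged: MAA-treated RNA carried the green dye on replicate 1 and the red dye on replicate 2. The other arrays hold MAA at 1 mM for 3 and 24 h and at 5 mM for 3, 8 and 24 h, with 2 arrays each, and are used here for the time course and the higher concentration. The line stands for Leydig cells in culture, without the tubules, hormones and blood supply of the testis.

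MAA is a short-chain carboxylic acid that the body makes from a solvent, ethylene glycol monomethyl ether, and it is known for its toxicity to the testis. It also inhibits histone deacetylases, the enzymes that remove acetyl groups from histones and so favour closed chromatin. Leydig cells lie between the seminiferous tubules, respond to luteinizing hormone and make testosterone from cholesterol.

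Values are log2 ratios of MAA-treated to control signal, positive where more RNA was found with MAA. Of 41174 probes, 27195 (66.0%) were well above background, the scanner software's own mark, in at least 1 channel on both arrays, and 26046 in both channels on both arrays. The median signal was 76.2 in the MAA channel and 76.9 in the control channel of replicate 1, and 78.6 and 77.9 on replicate 2. Over all probes the log2 ratio had a median of 0.04 on replicate 1 and -0.09 on replicate 2. The pair lay on different slides, replicate 1 on slide 2 and replicate 2 on slide 3, each beside arrays of other conditions, so the value of each array is also the value within its slide. Precision is limited by the number of arrays, 2 for the comparison.

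Probes are not independent replicates, so agreement across them is only described. Among the 27195 probes well above background the pair of arrays had a Pearson correlation of 0.358 and a Spearman correlation of 0.495, and 68.2% had the same sign on both arrays. Over the probes measured in both channels on both arrays the Pearson correlation was 0.579. Past 1.5-fold the same way on both arrays lay 643 of the probes well above background as increases and 277 as decreases. A further 128 passed 1.5-fold in opposite ways on the pair. Of these, 100 were higher in the red dye on both arrays whichever RNA it held, and in 88 of the 100 a channel was not well above background. None of the 128 was called by the test described with the counts.

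**Figure D1:**
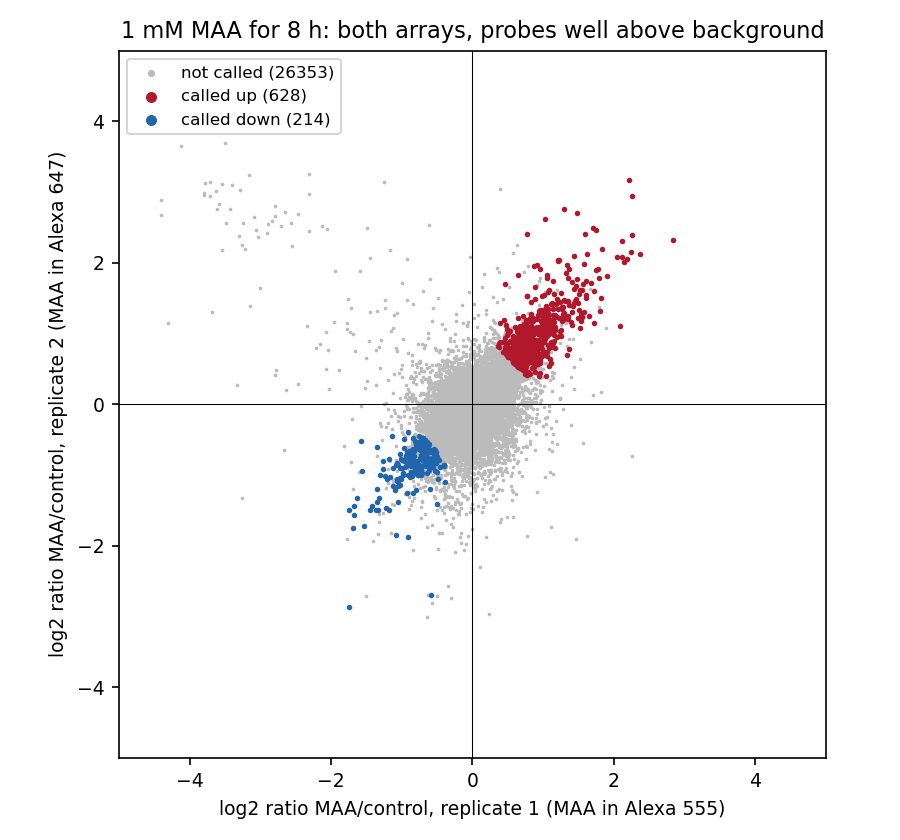
Log2 ratio, MAA over control, on replicate 1 (horizontal) and replicate 2 (vertical) for each of the 27195 probes well above background in a channel on both arrays, with 628 probes called up in red, 214 called down in blue and the others in grey. Called probes lie in the upper right and lower left, and a group of grey probes lies at the upper left, where the signal in the red dye was the higher one on both arrays.

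The label of the cells was set against marker genes of the testis. Of 8 Leydig cell markers, 4 were well above background in a channel on both arrays: Star, which carries cholesterol into mitochondria, Cyp17a1, the enzyme that turns progestins into androgens, Insl3, a Leydig cell hormone, and Nr5a1, the transcription factor of steroid-making cells. Cyp11a1, Hsd3b1 and Hsd3b6, enzymes of testosterone synthesis, and Lhcgr, the luteinizing hormone receptor, were not well above background. The highest probe signal of the 8 was that of Insl3, with 399 in the MAA channel and 443 in the control channel of replicate 1, and of 371 and 361 on replicate 2. None of the 8 was called, and their median log2 ratio was -0.01. Over all genes with 1 probe each, 11480 of 15972 were well above background by the same mark. The 4 of 8 are thus no sign of a Leydig identity. The receptor and the first enzyme of steroid synthesis were not well above background, and the name is used as the labels give it.

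Markers of other cells of the testis were measured too. Of 9 genes of peritubular myoid cells or fibroblasts, 8 were well above background, Myh11 was not, Col1a1 had the highest signal, and 1 was called. Of 7 Sertoli cell genes, 5 were well above background and Amh and Fshr were not, Wt1 had the highest signal, and 1 was called. Signals of different probes do not rank RNA levels between genes. Of 8 germ cell genes 6 were well above background, Dazl and Stra8 were not, and Ddx4 had the highest signal. Of 5 macrophage genes 2 were, Cd14 with the highest signal, while Ptprc, Adgre1 and Itgam were not, and of 6 endothelial genes 1, Tek, was. None of these 3 lists held a call. The called Sertoli gene was Clu, clusterin, a secreted chaperone, named here because its call was seen in the data. It had log2 ratios of 0.97 on replicate 1 and 1.06 on replicate 2 (mean 1.02, SE 0.0921, adjusted p = 0.00248). The summed Sertoli signal was 10651 with MAA and 9396 in the control on replicate 1, and 10588 and 9501 on replicate 2. Of this, Clu alone gave 2814 and 1441, and 2679 and 1281, and the list's median log2 ratio was -0.04. The called gene of the myoid list was Cnn1, calponin of smooth muscle, at 0.65 and 0.76 (mean 0.71, SE 0.088, adjusted p = 0.00697), while the summed signal of that list was 183306 against 195575 and 167256 against 180388. What part these markers have in the other results was not tested. In RNA of a whole culture, fewer cells of a type and less RNA per cell cannot be told apart.

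MAA at 1 mM for 8 h raised more RNAs than it lowered. A probe was called when limma's test gave an unadjusted p under 0.005 and the change was over 1.5-fold, the thresholds that the study used at this concentration. Called up were 707 of 41174 probes (1.72%) and called down 270 (0.656%), 977 in all (2.37%). Among the 27195 probes well above background 628 (2.31%) were up and 214 (0.787%) down. The called probes carry 441 gene symbols that rose and 109 that fell, and 0 symbols had probes called both ways, while 365 called probes carry no symbol here. Both arrays were past 1.5-fold for 583 of the increases and 199 of the decreases. After Benjamini-Hochberg adjustment over all probes, 622 increases and 226 decreases had an adjusted p under 0.05.

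Most changes were modest. The median log2 ratio was 0.87 among probes called up and -0.82 among those called down, against 0.02 over all probes. Over 2-fold were 249 increases and 75 decreases, over 3-fold 55 and 12, and over 4-fold 18 and 1. The counts depend on the processing: normexp background correction and loess normalization, changed together, gave 301 up and 97 down. Without replicate 1 the counts were 565 and 243, of which 439 and 134 are among the 707 and 270, and without replicate 2 they were 553 and 307, of which 389 and 147 are. The array left alone is then assumed to vary like the arrays of the other conditions. With the slide as a block, 811 probes were called up and 317 down, and with an error-weighted mean of the pair 846 and 514.

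Among genes measured in both channels on both arrays, the 12 largest increases were in genes of varied function, 1 of them a glucose transporter. Glod5, a protein with a glyoxalase domain, had log2 ratios of 2.37 on replicate 1 and 2.13 on replicate 2 (mean 2.25, SE 0.106, adjusted p = 0.000579), a 4.75-fold rise. Slc2a4, the insulin-responsive glucose transporter, stood at 2.24 and 2.16 (mean 2.20, SE 0.151, adjusted p = 0.00099), 4.60-fold. Srgn, serglycin, a proteoglycan of secretory granules, was at 2.19 and 2.05 (mean 2.12, SE 0.269, adjusted p = 0.00718). In each of these genes the lower of the pair of arrays was past 4-fold. Tmem255a, a membrane protein, rose with values of 2.14 and 2.02 (mean 2.08, SE 0.134, adjusted p = 0.000988), although a second probe of the gene had a log2 ratio of 0.68 and was not called. Dapk2, a calmodulin-regulated kinase of the death-associated family, was at 1.83 and 2.20 (mean 2.02, SE 0.273, adjusted p = 0.00899). Prtn3, a serine protease of neutrophil granules, was at 1.78 and 1.91 (mean 1.85, SE 0.103, adjusted p = 0.000883). These 6 genes all had adjusted p-values under 0.01.

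The next 6 increases rose about 3-fold. Cd52, a small surface glycoprotein known from lymphocytes and the epididymis, had log2 ratios of 1.79 and 1.79 (mean 1.79, SE 0.19, adjusted p = 0.0042). Car14, a membrane carbonic anhydrase, stood at 1.67 and 1.71 (mean 1.69, SE 0.15, adjusted p = 0.00232). Areg, amphiregulin, a ligand of the epidermal growth factor receptor, was at 1.57 and 1.70 (mean 1.63, SE 0.112, adjusted p = 0.00099). The pair of arrays lay close together for these 3 genes. Ocstamp, which takes part in the fusion of osteoclasts, was at 1.48 and 1.77 (mean 1.63, SE 0.205, adjusted p = 0.00705), and its second probe, at 0.28, was not called. Fgd2, an exchange factor for the GTPase Cdc42, was at 1.33 and 1.86 (mean 1.59, SE 0.173, adjusted p = 0.00435). Padi3, which converts arginine to citrulline in proteins, was at 1.54 and 1.62 (mean 1.58, SE 0.107, adjusted p = 0.000988) with signals of 532 against 182 on replicate 1 and 499 against 162 on replicate 2. With normexp and loess the log2 ratios of these genes shrank, to 1.00 for Glod5, 1.44 for Slc2a4, 0.86 for Srgn, 0.97 for Tmem255a, 0.77 for Dapk2, 0.82 for Prtn3, 0.89 for Car14, 0.97 for Areg, 0.75 for Ocstamp, 0.69 for Fgd2 and 0.69 for Cd52, whose call was lost. In all, 37 of the 78 called genes named here had values smaller by over 1.5 times with that setting.

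The largest decreases included a receptor, a transporter, a group of interferon-inducible GTPases and proteins found in plasma. Agtr2, an angiotensin receptor, had log2 ratios of -1.69 on replicate 1 and -1.75 on replicate 2 (mean -1.72, SE 0.249, adjusted p = 0.011), a 3.28-fold fall. Slurp1, a small secreted protein, was at -1.75 and -1.501 (mean -1.62, SE 0.266, adjusted p = 0.0169). Ces1d, a carboxylesterase, was at -1.68 and -1.44 (mean -1.56, SE 0.241, adjusted p = 0.0137). Both arrays of each gene were over 2-fold down. Evi2a, which lies inside an intron of the neurofibromin gene, fell with values of -1.43 and -1.43 (mean -1.43, SE 0.156, adjusted p = 0.00435). Lrrn3, a membrane protein with leucine-rich repeats, was at -1.35 and -1.38 (mean -1.36, SE 0.148, adjusted p = 0.00435), and its second probe, at -1.62, was called down too. Maob, a monoamine oxidase of the outer mitochondrial membrane, was at -1.05 and -1.15 (mean -1.10, SE 0.147, adjusted p = 0.00852). Serpind1, heparin cofactor, an inhibitor of thrombin, was at -1.21 and -1.06 (mean -1.13, SE 0.166, adjusted p = 0.0113), and Orm3 was at -1.24 and -1.02 (mean -1.13, SE 0.165, adjusted p = 0.0113). With normexp and loess the decreases shrank to -0.79 for Agtr2, -0.85 for Slurp1, -0.78 for Lrrn3 and -0.68 for Maob. The calls of Serpind1 and Orm3 were lost with that setting, and those of Slurp1 and Ces1d without replicate 1. Fitting only the arrays at 8 h ended the calls of Agtr2 and Orm3, and only those at 1 mM that of Ces1d. Gbp2b, Gbp3 and Gbp2, also among the 12 largest decreases, are described with their family.

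Slc7a11, the exchanger that brings cystine into the cell for glutathione, shows how far a pair can differ. Its log2 ratios were -0.59 on replicate 1 and -2.70 on replicate 2 (mean -1.64, SE 0.401, adjusted p = 0.0602). The signal was 74.6 with MAA and 112 in the control on replicate 1, and 488 and 3179 on replicate 2. The call was lost in 16 of 24 settings, 1 of them an adjusted p under 0.05. Without replicate 2 the value was -0.59 and was not called, and without replicate 1 it was -2.70.

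**Figure D2:**
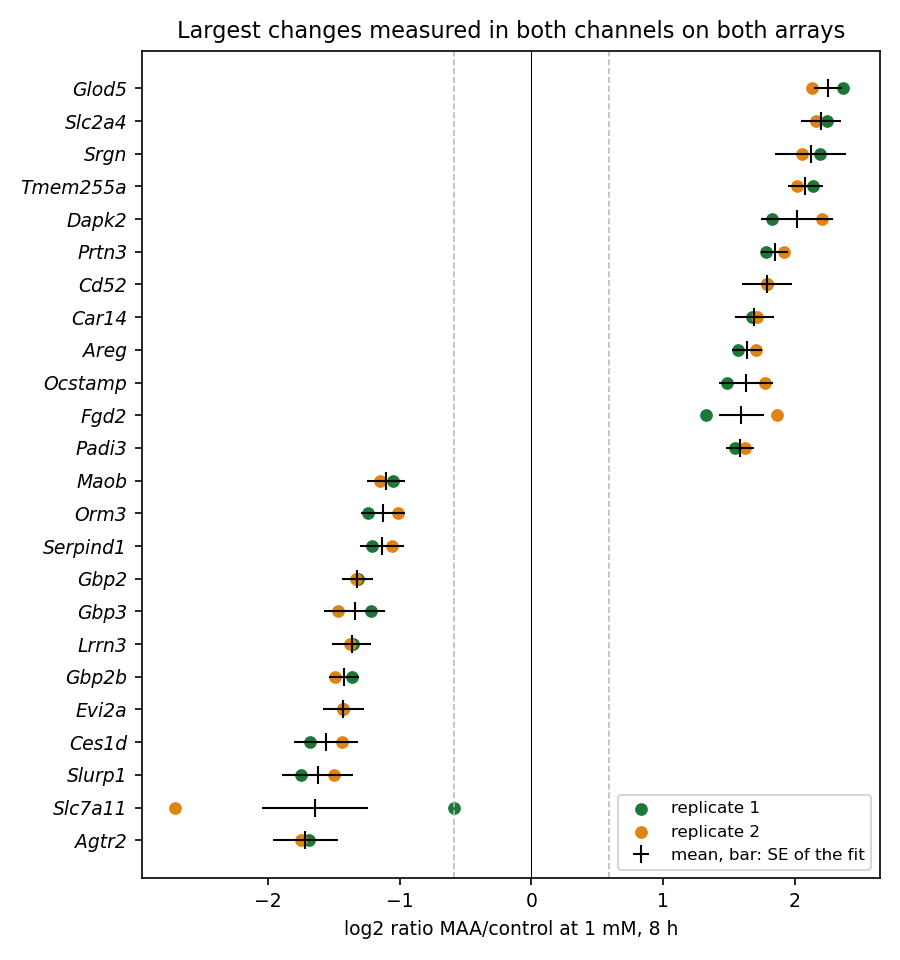
Log2 ratios at 1 mM and 8 h (horizontal) of 24 called genes, the 12 that rose most and the 12 that fell most among those measured in both channels on both arrays, with green points for replicate 1, orange points for replicate 2, and a black mark and bar for the mean and SE of the limma fit; dashed lines mark 1.5-fold. The arrays lie farthest apart for Slc7a11, at -0.59 and -2.70, then for Fgd2, at 1.33 and 1.86.

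Other RNAs were seen in one channel only. Where a channel was well above background on neither array, a bound is given: the mean of the bright channel against, on each array, the higher of the lowest signal well above background and the probe's own signal, after Aquantile normalization of the channels. In the control channel 104 of the increases were well above background on neither array, and in the MAA channel 65 of the decreases. Il7r, a subunit of the interleukin-7 receptor, was at least 3.59-fold higher with MAA (adjusted p = 0.00433), and its second probe was neither called nor well above background on both arrays. Acsm3, an acyl-CoA synthetase of mitochondria, was at least 2.82-fold higher (adjusted p = 0.00893). Zp3, a glycoprotein of the egg's zona pellucida, was at least 2.75-fold higher (adjusted p = 0.0611), with both of its probes called. Capsl, a relative of the calcium-binding protein calcyphosine, was at least 2.72-fold higher (adjusted p = 0.0112). Pramel37, of the Prame-like family, was the 1 decrease of this kind with a gene symbol past 1.5-fold on both arrays, at least 1.75-fold lower (adjusted p = 0.0613). All 5 calls were lost with normexp and loess, and those of Zp3 and Pramel37 in 14 and 12 of 23 settings, including an adjusted p under 0.05 and leaving out either array.

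Gene lists are described by 1 probe per gene, which over all 15972 symbols gave 414 increases (2.59%) and 89 decreases (0.557%), with a median of 0.03. The counts of every list are to be read beside these shares. A list with 1 increase is not read as a result about its family. Genes of steroid synthesis and Leydig cell function gave 1 call. Of 22 on the array, 14 were well above background, 1 rose and 0 fell, and the median was -0.01. The gene that rose was Shbg, which encodes the sex hormone-binding globulin, at 1.41 and 1.73 (mean 1.57, SE 0.183, adjusted p = 0.00561). Its control channel was above background on 1 of the 2 arrays, so no exact fold is read from it. With normexp and loess the value was 0.38 and the call was lost. Cyp17a1 had log2 ratios of -0.15 and 0.13 (mean -0.01). Star was at 0.13 and -0.24 (mean -0.06), and Insl3 at -0.15 and 0.04 (mean -0.05). For these 3 genes the pair of arrays had opposite signs. Esr1, the estrogen receptor alpha, stood at -0.04 and -0.45 (mean -0.25) and was not called, and Rhox5, a homeobox gene under androgen control in the testis, was at 0.27 and 0.26 (mean 0.26). Cyp11a1 was well above background on neither array in either channel.

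Further genes were taken whatever their values here, but the study had picked Itpka, Kcnab3, Rasgrp2, Ly96, Abca9 and Pcdhb15 from these same arrays, and Dhh and Slc2a4 were taken with its results known, so their calls are no independent evidence. Itpka, a kinase of inositol trisphosphate, had log2 ratios of 1.06 and 1.17 (mean 1.11, SE 0.0748, adjusted p = 0.000988). Kcnab3, a subunit of voltage-gated potassium channels, was at 1.17 and 1.23 (mean 1.20, SE 0.0576, adjusted p = 0.000579). Dhh, desert hedgehog, a signal that Sertoli cells send to Leydig cells, was at 1.63 and 2.12 (mean 1.88, SE 0.265, adjusted p = 0.0102). Its control channel was above background on 1 array, so no exact fold is read from it, and with normexp and loess the value was 0.41 and the call was lost. The first 2 of these calls were kept under each of the 24 settings tried. Ly96, the partner of the endotoxin receptor Tlr4, fell with values of -0.65 and -0.67 (mean -0.66, SE 0.0549, adjusted p = 0.00176). Abca9, a lipid transporter of the ABC family, was at -0.81 and -0.96 (mean -0.89, SE 0.224, adjusted p = 0.0678), a call lost in 13 of 24 settings, among them without either array, and its 3 probes were at -0.89, -0.87 and -0.49, of which 2 were called. Not called were Pcdhb15, at -0.24 and -0.31 (mean -0.28), Igfbp3, at 0.10 and 0.12 (mean 0.11), and Hoxb13, at 0.42 and 0.34 (mean 0.38). Rasgrp2 was not well above background in either channel.

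Linker histones H1, which bind the DNA between nucleosomes and compact chromatin, included 4 genes that rose. Of 8 on the array 4 were called up and 0 down, and the median log2 ratio was 0.40 (0.66 without replicate 1) against 0.02 over all probes. H1f3 had log2 ratios of 1.61 on replicate 1 and 1.55 on replicate 2 (mean 1.58, SE 0.197, adjusted p = 0.00703), with signals of 74.2 against 24.3 on replicate 1 and 83.9 against 28.7 on replicate 2, and with normexp and loess the mean was 0.78. H1f2 stood at 0.92 and 1.02 (mean 0.97, SE 0.116, adjusted p = 0.00608). H1f10 was at 0.71 and 0.99 (mean 0.85, SE 0.122, adjusted p = 0.0106). H1f0, the variant of resting and differentiated cells, was at 0.58 and 0.62 (mean 0.60, SE 0.0688, adjusted p = 0.00514), and all 3 of its probes were called up. A second probe of H1f3 had a log2 ratio of 0.06, so the probes of that gene disagree. The other members were H1f1 at -0.03, H1f5 at 0.00 and H1f4 at 0.13, while H1f6, the testis variant, was not well above background. H1f10 was lost with normexp and loess and with the arrays at 8 h alone, and H1f0 without replicate 2 and with the slide as a block. The enzymes that set histone acetylation were not called: 0 of 24 deacetylases and acetyltransferases passed, with a median of 0.03, and Hdac1 and Hdac2 were at 0.34 and 0.24 (mean 0.29) and 0.00 and 0.05 (mean 0.03).

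The promoters of the H1 genes that rose were searched for AAACACA, an element known from H1 genes that are active during DNA replication. The sequences come from RefSeq on mouse build GRCm38.p6 and give 300 bases around the start of a gene, and all 8 H1 genes matched. Both strands were searched for this motif alone, and capitals mark the match. H1f2 lies at chr13:23738557-23738856 and H1f3 at chr13:23554782-23555081, both on the plus strand, and they are shown because they rose most in the family:
H1f2: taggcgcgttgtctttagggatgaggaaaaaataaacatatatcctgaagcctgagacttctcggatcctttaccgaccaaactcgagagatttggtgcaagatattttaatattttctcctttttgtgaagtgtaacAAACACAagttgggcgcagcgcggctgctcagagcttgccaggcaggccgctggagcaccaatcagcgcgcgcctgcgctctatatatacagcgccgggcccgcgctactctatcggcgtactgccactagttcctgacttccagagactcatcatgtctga
H1f3: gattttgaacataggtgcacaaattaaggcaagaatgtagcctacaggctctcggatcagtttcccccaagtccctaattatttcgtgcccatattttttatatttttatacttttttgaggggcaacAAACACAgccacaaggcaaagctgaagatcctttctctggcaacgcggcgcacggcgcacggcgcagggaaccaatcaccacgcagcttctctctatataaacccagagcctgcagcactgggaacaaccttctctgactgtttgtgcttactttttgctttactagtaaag
The element stands in 7.18% of all 32851 promoters. Of the 8 H1 genes 5 hold it: H1f2 and H1f3, which rose, and H1f4, H1f5 and H1f6, which were not called. H1f0 and H1f10, which also rose, and H1f1 hold no match in these windows. A match is a description of letters and says nothing of what binds there.

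Interferon-inducible genes moved in both directions. Of 31 on the array 4 fell (12.9%) and 2 rose (6.45%), against 0.557% and 2.59% of all genes, and the median was -0.05. The 4 that fell are all guanylate-binding proteins, GTPases that act in the defence of cells against microbes. Gbp2b had log2 ratios of -1.36 on replicate 1 and -1.49 on replicate 2 (mean -1.43, SE 0.113, adjusted p = 0.00163), with signals of 169.9 against 437 and 181 against 508. Gbp3 was at -1.21 and -1.47 (mean -1.34, SE 0.234, adjusted p = 0.021). Gbp2 was at -1.31 and -1.33 (mean -1.32, SE 0.119, adjusted p = 0.00243), with signals of 238 against 591 and 231 against 581. Each of these genes was over 2-fold lower on both arrays. Gbp6 was called down too (adjusted p = 0.0226), but its MAA channel was above background on neither array and its control channel on 1, and the call was lost with normexp and loess and without replicate 1. Gbp4 was at 0.60 and 0.57 (mean 0.59), Gbp5 was not well above background and Gbp7 was at -0.39 and -1.27 (mean -0.83), none of them called. The calls of Gbp2 and Gbp2b were kept under each of the 24 settings, and that of Gbp3 was lost without replicate 2 and with the arrays at 8 h alone.

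The members that rose were Usp18 and Psmb9, named after their values were seen. Usp18, which removes the ubiquitin-like protein Isg15, had log2 ratios of 0.72 and 1.03 (mean 0.87, SE 0.128, adjusted p = 0.0113). Psmb9, a subunit of the immunoproteasome, was at 0.58 and 0.60 (mean 0.59, SE 0.0656, adjusted p = 0.00475). Both calls were lost with normexp and loess and without replicate 2, and that of Psmb9 also with the deposited ratios and with the slide as a block. Among other members that were not called, Irf1 was at -0.01 and -0.14 (mean -0.08) and Isg15 at -0.07 and 0.25 (mean 0.09). Other uncalled members lay on either side of 0, such as Oasl2 at -0.35 and -0.52 (mean -0.43), Ifit1 at -0.24 and -0.58 (mean -0.41) and Oas2 at 0.93 and 0.76 (mean 0.85). Uncalled members that are given beside the calls of a list were chosen after their values were seen.

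The promoters of the 3 guanylate-binding genes with the largest decreases are shown because they fell together and lie in one stretch of chromosome 3. They were searched on both strands for GAAA, any 2 bases and GAAA, the core of the interferon-stimulated response element, and capitals mark the matches. In RefSeq on GRCm38.p6 the windows are chr3:142559794-142560093 for Gbp3, chr3:142594597-142594896 for Gbp2b and chr3:142620413-142620712 for Gbp2, all on the plus strand:
Gbp3: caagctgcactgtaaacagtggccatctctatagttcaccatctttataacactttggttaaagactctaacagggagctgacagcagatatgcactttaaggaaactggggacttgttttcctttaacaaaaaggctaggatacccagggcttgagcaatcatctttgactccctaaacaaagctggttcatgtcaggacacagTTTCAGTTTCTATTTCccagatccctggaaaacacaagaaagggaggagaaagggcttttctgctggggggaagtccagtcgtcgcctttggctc
Gbp2b: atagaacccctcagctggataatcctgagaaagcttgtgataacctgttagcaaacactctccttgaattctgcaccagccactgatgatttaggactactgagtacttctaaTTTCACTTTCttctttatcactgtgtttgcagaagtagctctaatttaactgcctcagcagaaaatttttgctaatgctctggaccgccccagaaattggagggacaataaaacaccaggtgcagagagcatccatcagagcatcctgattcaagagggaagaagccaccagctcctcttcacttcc
Gbp2: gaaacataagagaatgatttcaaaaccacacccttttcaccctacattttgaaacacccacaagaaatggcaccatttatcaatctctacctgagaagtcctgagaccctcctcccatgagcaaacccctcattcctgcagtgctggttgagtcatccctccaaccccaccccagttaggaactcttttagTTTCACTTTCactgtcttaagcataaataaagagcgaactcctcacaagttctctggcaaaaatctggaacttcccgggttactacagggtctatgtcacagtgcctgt
Each window holds the element on the opposite strand, so that it reads TTTC, 2 bases and TTTC, and the 2 matches of Gbp3 overlap. It stands in 3.44% of all 32851 promoters, and in 16 of the 24 interferon-inducible genes of the list for which a promoter was given. Members whose windows hold it had different values: Gbp2, Gbp2b and Gbp3 fell, while Isg15, Stat2 and Ifit3 were not called, at 0.09, 0.11 and 0.22.

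**Figure D3:**
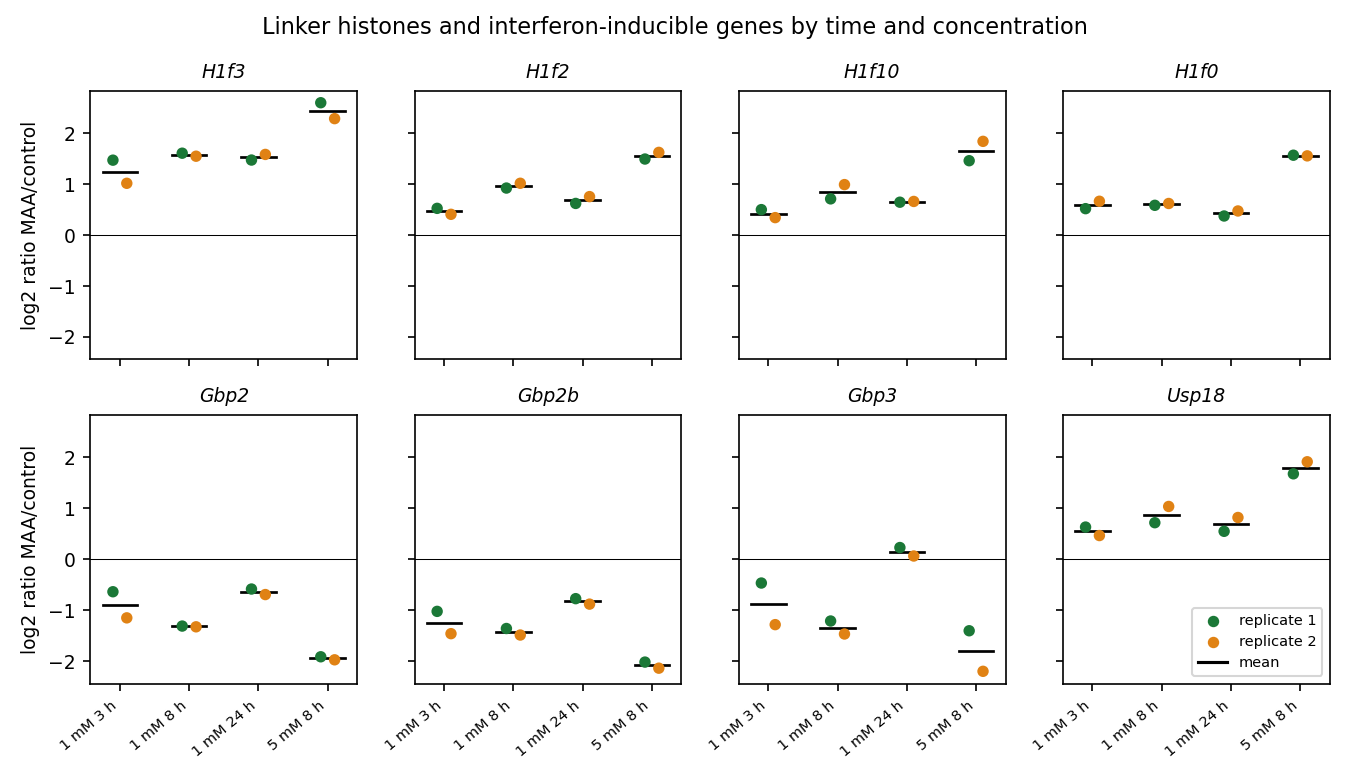
Log2 ratios of MAA-treated to control RNA (vertical) for 4 linker histone genes and 4 interferon-inducible genes at 1 mM for 3, 8 and 24 h and at 5 mM for 8 h, with green points for replicate 1, orange points for replicate 2 and a line for their mean. At 1 mM and 8 h the linker histones lie between 0.58 and 1.61 and the 3 guanylate-binding genes between -1.49 and -1.21 on single arrays.

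Genes of the circadian clock, the feedback loop of transcription factors that keeps daily time in most cells, included 4 that fell and 1 that rose. Over the 17 on the array the median was -0.31 against 0.02 over all probes. Dbp, an output factor of the clock, had log2 ratios of -1.08 on replicate 1 and -0.85 on replicate 2 (mean -0.97, SE 0.137, adjusted p = 0.0104), with signals of 928 against 1959 and 954 against 1724. Tef, of the same family of PAR bZIP factors, was at -0.82 and -0.87 (mean -0.85, SE 0.0698, adjusted p = 0.00174), and its 3 probes were all called down. Nr1d2, a nuclear receptor that represses Arntl, was at -0.71 and -0.66 (mean -0.69, SE 0.0528, adjusted p = 0.00153), named after its values were seen. Each of these was lower on both arrays by at least 0.66. Bhlhe41, a repressor of the loop, was at -0.80 and -0.60 (mean -0.70, SE 0.103, adjusted p = 0.0115), a call lost with normexp and loess and without replicate 1, and its second probe, dim and at 0.40, was not called. Arntl, also known as Bmal1, the activator of the loop, rose with values of 0.78 and 0.71 (mean 0.74, SE 0.0568, adjusted p = 0.00149). Not called were genes of the negative limb: Per1 was at -0.47 and -0.39 (mean -0.43), Per2 at -0.34 and -0.48 (mean -0.41) and Cry2 at -0.45 and -0.23 (mean -0.34). Clock, the partner of Arntl, was at 0.28 and 0.07 (mean 0.18), and Nfil3, which opposes Dbp at its target sites, at 0.37 and 0.16 (mean 0.26). The calls of Dbp, Tef, Nr1d2 and Arntl were kept under each of the 24 settings, while normexp and loess moved the median of the list to -0.16 and all probes of a gene to -0.20.

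Clock factors bind the E-box CACGTG, and the promoters were searched for these letters on both strands, with capitals for the match. Of the genes that fell, Tef and Bhlhe41 hold it and are shown. Their windows in RefSeq on GRCm38.p6 are chr15:81802423-81802722 on the plus strand and chr6:145865371-145865670 on the minus strand:
Tef: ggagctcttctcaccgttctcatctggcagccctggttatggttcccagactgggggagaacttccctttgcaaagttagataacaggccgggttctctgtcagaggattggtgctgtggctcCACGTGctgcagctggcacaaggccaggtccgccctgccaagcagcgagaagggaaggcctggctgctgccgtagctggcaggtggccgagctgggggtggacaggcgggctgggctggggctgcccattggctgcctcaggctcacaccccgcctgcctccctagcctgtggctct
Bhlhe41: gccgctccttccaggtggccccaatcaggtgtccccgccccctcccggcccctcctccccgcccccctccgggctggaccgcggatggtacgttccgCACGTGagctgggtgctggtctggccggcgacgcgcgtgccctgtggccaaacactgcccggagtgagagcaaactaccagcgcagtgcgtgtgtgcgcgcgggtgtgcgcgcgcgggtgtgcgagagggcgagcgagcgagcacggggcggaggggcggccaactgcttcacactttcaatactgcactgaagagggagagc
The hexamer reads the same on both strands and stands in 7.15% of all 32851 promoters. Of 15 clock genes with a promoter given, 4 hold it, Per1 and Cry1 being the others, at -0.43 and -0.31. In the windows of Dbp, Nr1d2 and Arntl these letters were not found, which says only that they are not in these 300 bases.

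**Figure D4:**
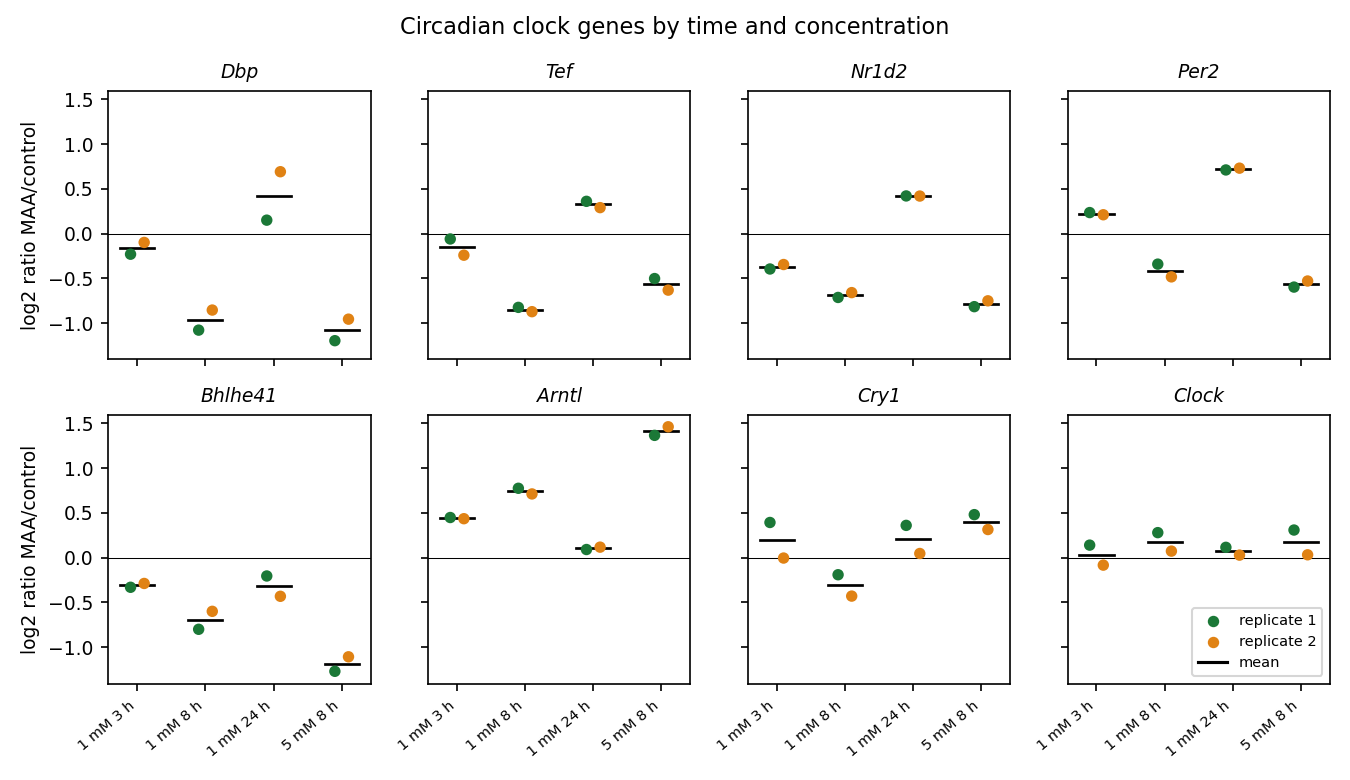
Log2 ratios of MAA-treated to control RNA (vertical) for 8 circadian clock genes at 1 mM for 3, 8 and 24 h and at 5 mM for 8 h, with green points for replicate 1, orange points for replicate 2 and a line for their mean. At 1 mM Dbp, Tef, Nr1d2 and Per2 are below 0 on both arrays at 8 h and above 0 on both at 24 h, and Arntl is highest at 8 h.

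Genes tied to growth factor signalling included 3 increases in 2 lists. Among 24 immediate early transcription factors 1 rose (4.17%) and 0 fell, with a median of 0.17. Fos, which pairs with Jun proteins, was at 0.65 and 0.60 (mean 0.62, SE 0.115, adjusted p = 0.0254), a call lost with normexp and loess, with the arrays at 1 mM alone and without either array. Egr1 was at 0.51 and 0.46 (mean 0.48) and Egr2 at 0.15 and 0.39 (mean 0.27), neither called. Of 12 inhibitors that ERK signalling switches on against itself, 2 rose (16.7%), and the median was 0.21, which normexp with loess moved to 0.13, all probes of a gene to 0.12 and the slide as a block to 0.35. Spry1, a sprouty protein, was at 0.76 and 0.64 (mean 0.70, SE 0.105, adjusted p = 0.0124). Spred2 was at 0.58 and 0.64 (mean 0.61, SE 0.0897, adjusted p = 0.0115). These calls were lost without replicate 1 for Spry1, and without replicate 2 and with normexp for Spred2. The kinase phosphatases were not called, Dusp6 being at 0.48 and 0.50 (mean 0.49) and Dusp4 at 0.39 and 0.40 (mean 0.40).

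Among 32 genes of phosphoinositide and calcium signaling 4 rose (12.5%, against 2.59% of all genes) and 0 fell. The median was 0.17 (0.08 with normexp and loess, 0.09 with all probes of a gene). Besides Itpka the increases were Rasgrp3, an activator of Ras that responds to diacylglycerol, at 1.11 and 1.02 (mean 1.07, SE 0.18, adjusted p = 0.0186), and 2 phospholipases. Plce1 was at 0.46 and 0.82 (mean 0.64, SE 0.154, adjusted p = 0.0579), and Plcd1 at 0.57 and 0.66 (mean 0.61, SE 0.0629, adjusted p = 0.00366). Rasgrp3 was lost with normexp and loess and without either array, Plcd1 without replicate 2, and Plce1 in 11 of 24 settings, an adjusted p under 0.05 among them. Cell cycle inhibitors and D-type cyclins had 2 increases among 15 genes (13.3%) and a median of 0.25 (0.10 without replicate 1). Ccnd1, cyclin D1, which drives cells out of G1, was at 0.62 and 0.76 (mean 0.69, SE 0.0972, adjusted p = 0.0102). Cdkn1a, the p21 inhibitor of cyclin-dependent kinases, was at 0.52 and 0.66 (mean 0.59, SE 0.081, adjusted p = 0.00928), a call lost without replicate 2, with the slide as a block and with the arrays at 8 h alone. Of 34 genes of DNA replication and mitosis 0 were called by the probe used, and the median was 0.08 (0.04 without replicate 1), with Pcna at 0.17 and 0.02 (mean 0.09) and Mcm4 at -0.01 and -0.10 (mean -0.05). A second probe of Cdc6, which loads the replicative helicase, was called up at 0.87, while the probe used was at 0.39.

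Genes of secreted growth factors and chemokines included 6 increases. Of 18 genes of the CCN and insulin-like growth factor system 4 rose and 0 fell, while the median was 0.01. Ccn2, connective tissue growth factor, had log2 ratios of 1.61 on replicate 1 and 1.505 on replicate 2 (mean 1.56, SE 0.138, adjusted p = 0.00232), with signals of 6546 against 2145 and 5653 against 1992. Ccn1, its relative, was at 0.83 and 0.68 (mean 0.76, SE 0.0948, adjusted p = 0.00703). Htra1, a secreted protease that cleaves matrix proteins and binding proteins of growth factors, was at 0.78 and 0.67 (mean 0.72, SE 0.072, adjusted p = 0.00324). Igf2, a growth factor of the fetus, was at 0.71 and 0.64 (mean 0.68, SE 0.134, adjusted p = 0.0317), its second probe was called up too, and the call was lost without either array. Of 28 chemokines and cytokines 2 rose (7.14%, against 2.59% of all genes) and 0 fell, with a median of 0.19 (0.08 with normexp and loess). Cxcl10, which attracts T cells, was at 1.13 and 1.20 (mean 1.16, SE 0.0745, adjusted p = 0.000988). Cx3cl1, fractalkine, was at 0.83 and 0.93 (mean 0.88, SE 0.0688, adjusted p = 0.00158). Csf1, the growth factor of macrophages, was just under 1.5-fold at 0.57 and 0.60 (mean 0.58) and was not called, and Cxcl12 was at -0.47 and -0.11 (mean -0.29).

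In the toll-like receptor pathway 1 of 14 genes rose and 1 fell, with a median of -0.18. Tlr1, a receptor for bacterial lipopeptides, was at 0.86 and 1.00 (mean 0.93, SE 0.0762, adjusted p = 0.00174), and Ly96, described before, was the one that fell. Besides Dhh, 0 of the 13 Hedgehog genes were called, and the median was -0.04. Of 20 genes of inhibin, activin and TGF-beta signalling 0 were called, with a median of 0.05. Id1, a repressor of basic helix-loop-helix factors, was just under 1.5-fold at 0.64 and 0.49 (mean 0.57) for 1 probe, and its second probe, at 0.63, was called up, so the probes differ in their call. Bmp4 was at 0.10 and 0.26 (mean 0.18).

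Genes of the matrix and the cytoskeleton were counted in 5 lists of few calls each, to be read beside the 2.59% of all genes called up and 0.557% called down. Of 21 collagens 1 rose (4.76%), Col11a1, a minor fibrillar collagen, at 0.96 and 0.83 (mean 0.90, SE 0.103, adjusted p = 0.00527), and the median was 0.01. Among 12 small leucine-rich proteoglycans 1 rose (8.33%), Prelp, at 0.76 and 1.12 (mean 0.94, SE 0.169, adjusted p = 0.0233), while its second probe, dim, was at -0.27 and the call was lost without replicate 2, and the median was -0.14 (-0.07 with normexp and loess, -0.08 without replicate 1, -0.22 without replicate 2). Of 17 matrix metalloproteinases and inhibitors 0 were called, with a median of -0.12 (-0.05 with normexp and loess, -0.03 without replicate 2). In the protocadherin beta cluster, adhesion proteins known best from neurons, 1 of 22 genes fell and the median was -0.30. Pcdhb19 was at -0.66 and -0.63 (mean -0.64, SE 0.0978, adjusted p = 0.0126), a call lost with normexp and loess, which moved the median of the cluster to -0.13. Pcdhb20, at -0.49 and -0.63 (mean -0.56), and Pcdhb16, at -0.48 and -0.32 (mean -0.40), were lower by less than 1.5-fold. Of 18 actin cytoskeleton genes 2 rose (11.1%), and the median was 0.14, while further probes of Ablim3 and Vil1 were called up that were not the probes used. Lmod1, leiomodin, which nucleates actin filaments in smooth muscle, was at 1.54 and 1.28 (mean 1.41, SE 0.349, adjusted p = 0.0631), a call lost in 13 of 24 settings, among them without either array and at an adjusted p under 0.05, and at 0.62 with normexp and loess. The other was Cnn1, whose values stand with the markers.

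Among metabolic genes, 2 sugar transporters rose. Of 22 genes of glucose transport and glycolysis 2 rose (9.09%, against 2.59% of all genes), with a median of 0.13. Slc2a6, a glucose transporter of intracellular membranes, was at 0.87 and 0.78 (mean 0.83, SE 0.119, adjusted p = 0.0107) beside Slc2a4, a call lost with normexp and loess. Of 26 genes of fatty acid use 1 was called up (3.85%), Ehhadh, of peroxisomal beta-oxidation, and the median was 0.04. Ehhadh was well above background in neither channel on either array, so no fold is given. Its call was lost with normexp and loess and without replicate 1. Among 20 genes of cholesterol synthesis and uptake 0 were called, with a median of -0.12. Msmo1 and Sqle, enzymes of the sterol pathway, were at -0.01 and -0.20 (mean -0.10) and 0.07 and -0.04 (mean 0.02). Of 22 NRF2 and glutathione genes 2 fell, with a median of 0.00. Besides Slc7a11 this was Gsta2, a glutathione transferase, at -0.96 and -0.78 (mean -0.87, SE 0.139, adjusted p = 0.0152), a call lost without replicate 1 and with the arrays at 1 mM alone.

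Genes of 2 stress programmes gave no calls. Of 18 genes of the integrated stress response 0 were called, with a median of -0.02. Psat1, an enzyme of serine synthesis, was at 0.08 and -0.14 (mean -0.03) and Cebpb at 0.53 and 0.45 (mean 0.49). Among 18 heat shock and endoplasmic reticulum chaperones 0 were called, with a median of 0.20 (0.11 without replicate 2). The cytosolic chaperone Hsp90aa1 was at 0.08 and 0.61 (mean 0.34). In the BCL2 family, which controls mitochondrial cell death, 2 of 17 rose (11.8%, against 2.59% of all genes) and the median was -0.05. Bcl2, the protective member, was at 0.78 and 0.73 (mean 0.75, SE 0.128, adjusted p = 0.0188), its second probe, at 0.40, was not called, and the call was lost without either array. Pmaip1, known as Noxa, which promotes cell death, was at 0.68 and 0.51 (mean 0.60, SE 0.0899, adjusted p = 0.0125), a call lost with normexp and loess, with the arrays at 8 h alone and without replicate 1.

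Of 23 nuclear hormone receptors 1 rose (4.35%, against 2.59% of all genes), and the median was 0.01. Esr2, the estrogen receptor beta, was at least 1.69-fold higher (adjusted p = 0.0248), since its control channel was well above background on neither array, and the call was lost with normexp and loess and without either array. Of 19 ABC transporters 1 fell, Abca9, and 1 was called up, Abca4, which was well above background in neither channel and whose call was lost in 9 of 22 settings, among them without either array and at an adjusted p under 0.05, and the median was 0.06 (0.14 without replicate 1, 0.12 with the slide as a block). Medians of lists close to 0, among them those of the nuclear receptors, the collagens and the BCL2 family, changed sign or moved by over 1.5 times in several settings, so no direction is read from them.

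**Figure D5:**
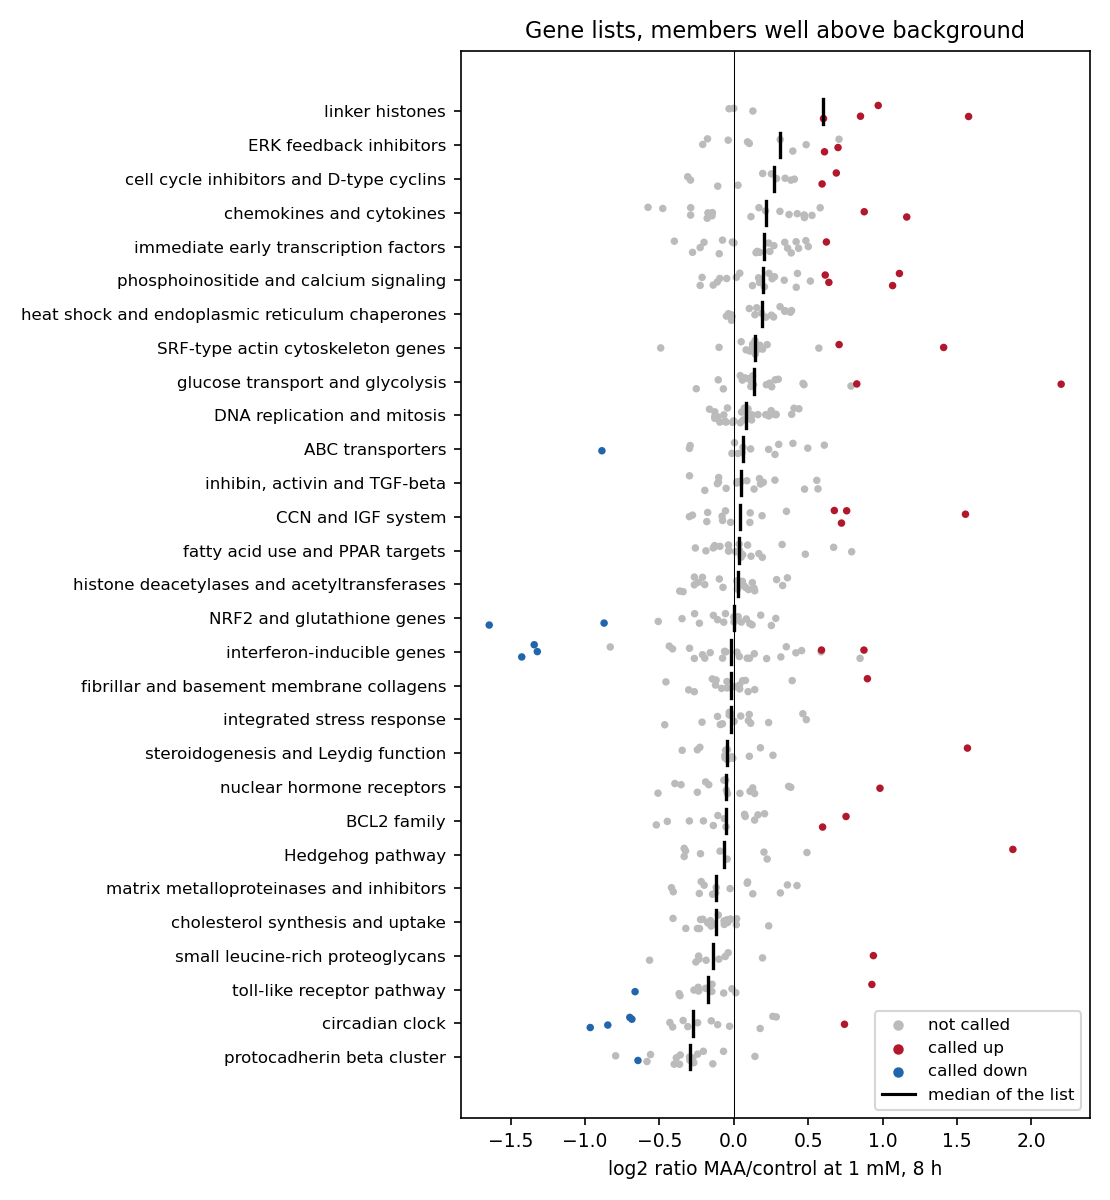
Log2 ratios at 1 mM and 8 h (horizontal) of the members of 29 gene lists that were well above background in a channel on both arrays, 1 point per gene, with called genes in red (up) or blue (down), the others in grey and a black mark at the median of each list. Linker histones have the highest median, 0.60 over these members, and the protocadherin beta cluster the lowest, -0.30.

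The time course at 1 mM sets these changes beside 3 h and 24 h, each against the control of its own time. At 3 h 545 probes were called up (1.32%) and 258 down (0.627%), and at 24 h 1343 (3.26%) and 582 (1.41%). Of the probes called up at 8 h, 212 were also called up at 3 h, 30.0% of the 8 h list and 38.9% of the 3 h list. At 24 h 417 were, 59.0% of the 8 h list and 31.0% of the 24 h list. Of the probes called down, 57 were called down at 3 h (21.1% and 22.1% of each list) and 96 at 24 h (35.6% and 16.5%). Called opposite ways were 4 probes between 8 h and 3 h and 6 between 8 h and 24 h. The probes called up at 8 h had a median log2 ratio of 0.42 at 3 h and 0.77 at 24 h, and those called down of -0.35 and -0.48, against 0.02 and -0.07 over all probes.

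Some genes had large values at each time and others did not. Slc2a4 had mean log2 ratios of 2.74 at 3 h, 2.20 at 8 h and 2.21 at 24 h. Areg was at 2.28, 1.63 and 0.75. Srgn, in contrast, was at 1.02, 2.12 and 2.88. Slc2a4 was over 4-fold up at all 3 times. Glod5 was at 0.94, 2.25 and 2.46. Evi2a was at -0.07, -1.43 and -1.24, and Ccnd1 at 0.26, 0.69 and 0.30. Whether such values differ between 8 h and 3 h was tested as a limma contrast without a block, and 0 of 41174 probes (0%) passed an adjusted p under 0.05. At an unadjusted p under 0.05 there were 3538 and under 0.005 there were 725, and the smallest adjusted p was 0.0582. Leaving out dim probes gave 143, the deposited ratios 350, normexp with loess 51, and 1 probe per symbol 39. The slide as a block gave 0 and leaving out replicate 2 of 3 h gave 2. With the replicate number, which is also the dye orientation, as a block, 160 probes passed. The count depends on the setting, and the 0 is not read as an absence of differences.

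Between 24 h and 8 h the contrast found 237 probes (0.576%), 156 with the higher log2 ratio at 24 h and 81 with the lower. Among the probes called up at 8 h, 10 were higher and 19 lower at 24 h, and among those called down 21 were higher and 4 lower. These probes were picked by their 8 h values, which also enter the difference. The picking alone moves probes called up towards lower and probes called down towards higher. No reversal is therefore read from these splits, and the same limit holds for single genes called at 8 h. Clock genes are among the 237, and, since the count fell to 0 without either array of 8 h, their calls in this contrast ended there too. Dbp stood at -1.08 and -0.85 at 8 h and at 0.15 and 0.69 at 24 h, a difference of 1.39 (SE 0.194, adjusted p = 0.0372). Tef went from a mean of -0.85 to 0.33 (difference 1.17, adjusted p = 0.00833), Nr1d2 from -0.69 to 0.42 (difference 1.11, adjusted p = 0.0053). Arntl went from 0.74 to 0.10, a difference of -0.64 (adjusted p = 0.0278). At 24 h Dbp, Tef and Nr1d2 were thus above the control on both arrays. Within slide 2, which holds replicate 1 at 8 h and replicate 2 at 24 h, Dbp was at -1.08 and 0.69, Tef at -0.82 and 0.29. Nr1d2 was at -0.71 and 0.42 there, and Arntl at 0.78 and 0.12. The pair of arrays within this slide differs in dye orientation, with MAA in green at 8 h and in red at 24 h.

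Other genes that differed between 8 h and 24 h include Agtr2, at -1.72 and 0.58 (adjusted p = 0.0461), and Htra1, at 0.72 and 0.05 (adjusted p = 0.0454). Txk, a tyrosine kinase of T cells, was up at 8 h, at 0.92 and 1.05 (mean 0.98, SE 0.0746, adjusted p = 0.00147), and stood at -0.20 at 24 h (adjusted p of the difference = 0.0105). Among the largest differences were genes not called at 8 h: Lum, lumican, a proteoglycan of collagen fibrils, was at -0.06 and 2.29, and Fmo2, a flavin monooxygenase, at 0.12 and 2.43. Peg10, an imprinted gene, was at -0.35 and -2.64. Adgre1, the macrophage marker, had a higher ratio at 24 h (adjusted p of the difference = 0.0127), but at 8 h it was not well above background in either channel, so no size is read from it. It was named after its values were seen, and its part in the other values at 24 h was not tested. For Gbp2 and Gbp3 the difference did not pass: Gbp2 was at -1.32 and -0.64 (adjusted p = 0.16) and Gbp3 at -1.34 and 0.14 (adjusted p = 0.123). All of these calls ended without either array of 1 mM at 8 h, where the contrast found 0 probes.

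This contrast rests on all the arrays. It fell to 0 probes without either array of 1 mM at 8 h or without replicate 1 of 24 h, and to 9 without replicate 2 of 24 h. Leaving out an array of 1 mM at 3 h gave 107, of 5 mM at 3 h 150, at 8 h 80 and at 24 h 57. It was also 0 with the arrays at 1 mM alone, 79 after centring each array on its median and 104 with the slide as a block. Higher counts came from leaving out dim probes (764), the replicate number as a block (984) and the deposited ratios (1001).

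At 5 mM for 8 h 2903 probes were called up (7.05%) and 2730 down (6.63%) by the same thresholds. The arrays of 1 and 5 mM at 8 h may share control cultures, since both name the control of that time, so values are given side by side and no overlap is read from them. The probes called up at 1 mM had a median log2 ratio of 1.27 at 5 mM, and those called down of -1.27. As a contrast, 4162 probes (10.1%) differed between the concentrations, 1992 with the higher log2 ratio at 5 mM and 2170 with the lower. Among the probes called up at 1 mM 195 were higher and 46 lower at 5 mM, and among those called down 13 were higher and 105 lower. The values at 1 mM that picked these probes also enter the difference, so these splits are only described. Without replicate 1 or 2 of 1 mM at 8 h the contrast gave 1059 and 1380, without those of 5 mM 1428 and 1593, without either array of 1 mM at 24 h 2745, and with the arrays at 8 h alone 0. Centring gave 1491, the slide as a block 6292, the replicate number as a block 8166, 1 probe per symbol 2698, and leaving out dim probes 6468.

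Genes differed in how much the higher concentration added. Slc2a4 was at 2.24 and 2.16 at 1 mM and at 4.22 and 4.42 at 5 mM (difference 2.12, SE 0.214, adjusted p = 0.00231). Cxcl10 was at 1.16 and 3.57 (adjusted p = 0.000438). Gch1, the first enzyme of tetrahydrobiopterin synthesis, was at 1.38 and 3.62 (adjusted p = 0.000438), with a limma adjusted p of 0.000579 for its rise at 1 mM. All 3 had risen at 1 mM already. Cebpd, a transcription factor of the C/EBP family, was at -0.71 and -0.75 (mean -0.73, SE 0.124, adjusted p = 0.0191) at 1 mM, a call lost without either array, and at -2.68 at 5 mM (adjusted p of the difference = 0.00173). Other genes were not called at 1 mM: Dnajc6 was at -0.08 and -2.15 (adjusted p = 0.00312), Fgf7 at -0.02 and -1.95 (adjusted p = 0.000657), Fam222a at 0.12 and 2.39 (adjusted p = 0.00953), and Ggt5 at -0.48 and -2.41 (adjusted p = 0.00277). The protocadherin beta cluster had a median of -0.30 at 1 mM and -1.40 at 5 mM, and the linker histones of 0.40 and 1.11.

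For other genes that changed at 1 mM no difference between the concentrations passed. Glod5 was at 2.25 and 2.69 (adjusted p of the difference = 0.117), Padi3 at 1.58 and 1.78 (adjusted p = 0.568) and Dapk2 at 2.02 and 2.08 (adjusted p = 0.955). Of the clock genes, Dbp was at -0.97 and -1.08 (adjusted p = 0.895), Tef at -0.85 and -0.57 (adjusted p = 0.131) and Nr1d2 at -0.69 and -0.78 (adjusted p = 0.558), while Arntl was at 0.74 and 1.41 (adjusted p = 0.00392). A p that misses the threshold does not show that the concentrations act alike. With 2 arrays per condition the SE of a difference was 0.194 for Dbp and 0.385 for Dapk2.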

How the data were processed

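RNA of MAA-treated and control TM3 cells was hybridized to 12 two-colour Agilent arrays, 2 for each of 6 conditions, and the groups follow the deposited labels. The authors ran Feature Extraction 9.5.3.1, and per the file headers the deposited signal intensity values are background-subtracted, detrended and dye-normalized by a linear and LOWESS method. The deposited value table holds log10 ratios, with a median of 0 per array, which matched the scanner ratios turned to MAA over control within 0.005, and was used as an alternative. Of 45018 spots 1639 controls were left out, as were spots marked as outliers, 132 and 163 on the pair of 1 mM at 8 h. Log2 of MAA over control processed signal was averaged per probe name without centring. Symbols were assigned through accessions to 22072 of 41174 probes, of 15972 genes, and 19102 probes have none. The deposited scanner output also holds flags and errors of each spot, and genes of the lists that matched no probe were not analysed here.

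Ratios were fitted in R 4.3.3 (limma 3.58.1; tables read by data.table, version 1.17.8, and jsonlite, version 2.0.0), and promoters and figures were handled in Python 3.11.15 with matplotlib 3.10.9. All 12 arrays entered 1 limma fit (lmFit, eBayes) with 1 coefficient per condition, which has 6 residual and 1.52 prior degrees of freedom, and no covariate. Calls took an unadjusted p under 0.005 and over 1.5-fold. Contrasts between conditions took a Benjamini-Hochberg adjusted p under 0.05 over all probes. Standard errors and p-values come from this fit and rest on the spread between the 2 arrays of a condition. Those arrays differ in pool of cultures, dye orientation and slide, and the fit does not separate these. The spread leaves out that of the controls if a pair shares its control pool, which the sources used here do not settle. The Rosetta error model that the study used was not run, and limma's test replaced it. The fit was tested on simulated data with known changes and noise drawn separately for each array. Effects of dye orientation and slide were not simulated, so that test does not cover them.

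Members and lists were chosen with earlier results of these data known. Named genes have 1 symbol and 1 probe: the 12 largest increases and 12 largest decreases measured in both channels and past 1.5-fold on both arrays, the 4 largest bounds each way, 18 genes taken whatever their values, up to 4 members of each list, and the 4 largest differences each way of each contrast. A list is described by its brightest probe per gene. Genes outside this rule were named after their values were seen: called members beyond the 4 of a list, called markers, list members and markers that differed between times, and members given in the text to complete a family.

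Alternatives were normexp with an offset of 50 and loess, the deposited ratios, centring, leaving out dim probes in 1 or both channels, keeping outlier spots, the arrays at 1 mM or at 8 h alone, the replicate number or the slide as a block, leaving out each array, 1 probe per symbol, adjusted p-values, 2-fold and 2 SD thresholds, and an error-weighted mean of the pair.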

Additional observations from a re-analysis of the deposited data

Results flagged for a closer look

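All results given here were picked because the log2 ratio at 1 mM differed between 24 h and 8 h in a limma contrast (Benjamini-Hochberg adjusted over all probes, threshold 0.05), among named genes, members of the gene lists and markers. Differences are 24 h minus 8 h. For genes called at 8 h, the values that gave the call also enter the difference. The count behind them fell to 0 without either array of 8 h, so none of these calls holds without them. Genes outside the rule for named genes (Insig1, Fosl1, Klf10, Cdc6, Ccne2, Il33, Fmod, Mmp3, Igfbp5, Angptl4, Gpx1, Ddit3, Per2, Nr1d2, Rarb, Clu and Adgre1) were chosen after their values were seen.

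Of genes that had changed at 8 h, the difference was 1.27 for Tmem255a, called up at 8 h, and 2.3 for Agtr2, 1.39 for Dbp, 1.17 for Tef and 1.11 for Nr1d2, which were called down at 8 h. For Gbp6, called down too, it was 1.81, but its MAA channel was well above background on neither array at 8 h and its control channel on 1, so no fold is read from it. The difference was -0.67 for Htra1, -0.64 for Arntl and -1.18 for Txk, called up at 8 h, and 0.95 for Clu, also called up at 8 h. Per2, of the clock list and not called at 8 h, differed by 1.13.

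For the other genes the probe used was not called at 8 h, though a second probe of Cdc6, at 0.87, was called up. Among matrix and growth factor genes, the difference was 2.35 for Lum, 0.97 for Fmod and 1.76 for Mmp3, a metalloproteinase. For Igfbp5, which binds insulin-like growth factors, it was 1.73. Fgf7, a growth factor for epithelia, had -1.04.

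In immune signals Il33, an alarm cytokine, differed by 1.21 and the chemokine Ccl9 by -1.2. The cell cycle regulators Cdc6 and Ccne2 differed by -0.58 and -0.65. The transcription factors Fosl1, Klf10 and Ddit3 differed by -0.72, 0.56 and 0.62, and Rarb, a retinoic acid receptor, by 2.12. Metabolic and antioxidant genes were Insig1 (0.6), which restrains sterol synthesis, Angptl4 (-0.76), an inhibitor of lipoprotein lipase, Gpx1 (-0.69), a glutathione peroxidase, and Fmo2 (2.31). The remaining genes were Speer4d (2.17), Pde6h (-1.15) and Peg10 (-2.29). Adgre1, a macrophage marker, differed by 2.94, from a value at 8 h that was not well above background in either channel, so no fold is read from it.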

How the results depend on the processing

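No named gene called here changed direction under the settings tried, while medians of gene lists near 0 changed sign in some. Counts of increases and decreases were 301 and 97 with normexp and loess, 249 and 75 over 2-fold, and 414 and 89 with 1 probe per symbol, fewer by construction in the last. The error-weighted mean of the pair gave 846 increases and 514 decreases. With each array left out in turn there were 553 to 734 increases and 243 to 307 decreases. Centring each array moved the share of increases from 72.4% to 76.9%. Of 78 called genes named in the text, 25 lost the call with normexp and loess, 20 without replicate 1 and 21 without replicate 2 of 1 mM at 8 h, and 37 had values smaller by over 1.5 times with normexp. The cause of these shifts was not tested.

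The contrast of 8 h with 3 h found 350 probes with the deposited ratios, 51 with normexp, 5 with outlier spots kept, 725 at an unadjusted p under 0.005, 143 and 172 with dim probes left out in 1 or both channels and 39 with 1 probe per symbol, and 0 to 2 without 1 array. For 24 h with 8 h the counts were 0 with the arrays at 1 mM alone, 79 centred, 1001 with the deposited ratios, 104 with the slide as a block, 1192 at an unadjusted p under 0.005, 764 and 834 without dim probes, and 0 to 150 without 1 array. For 5 with 1 mM they were 0 with the arrays at 8 h alone, 1491 centred, 6292 with the slide as a block, 6468 and 6623 without dim probes, 2698 with 1 probe per symbol, and 1059 to 3824 without 1 array.

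The replicate number is also the dye orientation. Deviations of arrays with the same number correlated between 0.07 and 0.51 over 15 pairs of conditions, most of them clearly above 0, so arrays of the same orientation deviated together in part. As not every pair was over 0.1, the fit without the block is the one reported. With it as a block, 742 probes were called up and 322 down, and the contrasts found 160, 984 and 8166 probes for 8 h with 3 h, 24 h with 8 h and 5 with 1 mM.

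Signal over background limits the dim genes: 79 of the increases and 56 of the decreases were not well above background in a channel on both arrays, and no fold is read from them. Each condition has 2 arrays, and each array compares pools, so the spread between single cultures was not measured. The settings of 2 SD and adjusted p changed the counts of calls by less than 1.5 times.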

Other observations

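Some gene lists had medians that lay on different sides of the control at the 3 times of 1 mM. The median log2 ratio of the clock genes was 0.01 at 3 h, -0.31 at 8 h and 0.33 at 24 h. For the small leucine-rich proteoglycans it was -0.15, -0.14 and 0.47, and for the interferon-inducible genes -0.08, -0.05 and 0.36. The linker histones stood at 0.36, 0.40 and 0.60. Over all probes the medians were 0.02, 0.02 and -0.07. Differences between these medians were not tested.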
